A study of Danio rerio with 10 samples.

Results

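The integrated stress response and the serine synthesis that it controls were followed through 10 genes, *atf4a*, *atf4b*, *ddit3*, *atf3*, *trib3*, *chac1*, *sesn2*, *asns*, *psat1* and *phgdh*, in the skeletal muscle of zebrafish. The members were picked by gene name from the 17373 genes listed for induced torpor, and all 10 names were found. Of these, 8 have a single human counterpart and belong to the 9411 genes that could be read in every comparison. The other members, *atf4a* (ENSDARG00000111939) and *atf4b* (ENSDARG00000038141), are both counterparts of human ATF4 and were read in the comparison of induced torpor with the control only. *asns* is ENSDARG00000016375 and *atf3* is ENSDARG00000007823. Names and IDs are those of the deposited tables, which were made with the GRCz11 assembly.

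The fish were adults of the AB strain, and the tissue was a piece of dorsal muscle, which is mainly fast-twitch. The control group (2 fish) lived at 28.5 °C with neither melatonin nor radiation, and the radiation group (3 fish) lived at the same temperature and received 32.64 cGy according to the labels. The induced torpor group (2 fish) was taken down gradually to 18.5 °C and kept in 24 µM melatonin without radiation, and the induced torpor+radiation group (3 fish) had the cold, the melatonin and 32.64 cGy together. Cold and melatonin therefore cannot be told apart in this set. Per the paper, irradiated fish were anaesthetized with tricaine and kept singly in dishes for each exposure, and they were killed days after the last one. Such handling is not described for the other groups, so radiation and this handling cannot be told apart either. Fish codes open with F in every library at 28.5 °C, with M in both libraries of induced torpor, and with F in 1 and M in 2 of the induced torpor+radiation group, so whatever these unexplained letters stand for cannot be told apart from the treatment in most comparisons.

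When proteins misfold, amino acids run short or haem is lacking, dedicated kinases phosphorylate the translation factor eIF2. Most protein synthesis then slows, while the mRNA of the transcription factor ATF4 is translated more, so the level of *atf4* mRNA by itself does not measure ATF4 protein. In mammals ATF4 switches on further stress factors (ATF3 and DDIT3, also called CHOP), proteins that damp or modify the response (TRIB3, CHAC1, SESN2), and enzymes that make asparagine (ASNS) and serine (PHGDH, PSAT1). In mammalian skeletal muscle this programme is best known from mitochondrial disease.

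The deposited tables hold 1 row per gene and comparison, with baseMean (the average of the normalized counts of the 10 fish), a log2 fold change (treated over control), its standard error (SE) and a p-value, and no value per fish. The mean of each group was recovered from these numbers, as normalized counts (counts divided by a size factor for each library), with a 95% interval from the fitted model. These are the finest values that can be shown: an SD between fish, the depth of each library and an overlap of single fish are not known here. The counts are not divided by gene length, so a level is compared between groups for 1 gene. Between genes, baseMean serves only as a rough guide to the tissue and to how well a gene was counted. P-values and intervals rest on a single dispersion per gene (the spread of its counts between fish), fitted over all 4 groups together. They do not measure the spread within the groups compared, they concern these fish only, and the 3 comparisons with the control share its 2 fish.

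The tissue label was checked first because the extraction text of the labels speaks of liver. Of 22 fast muscle markers 14 were found, with baseMean from 0.445 (*mylpfb*) to 419048 (*ckmb*), and 12 of them had baseMean of at least 10. Of the 12 liver markers found, 11 had baseMean of 33.1 or less, *vtna* among them at 0, and the remaining one, *rbp4*, stood at 5637. One control value stands apart: the 14 oocyte markers with a single human counterpart summed to 617 normalized counts in the control, against 20.3 in radiation, 20.8 in torpor and 10.1 in torpor+radiation, with *mos* at 0. In bulk muscle, fewer cells of a type and less RNA per cell cannot be told apart. Over genes with a single human counterpart and baseMean of at least 50, the median gene stood 0.11 (radiation), 0.10 (torpor) and 0.15 (torpor+radiation) above the control on the log2 scale. Over all genes listed for torpor, at the same baseMean, the median was 0.06. Where the shift of the median gene is subtracted below, the value for torpor is the 0.10.

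**Figure D1:**
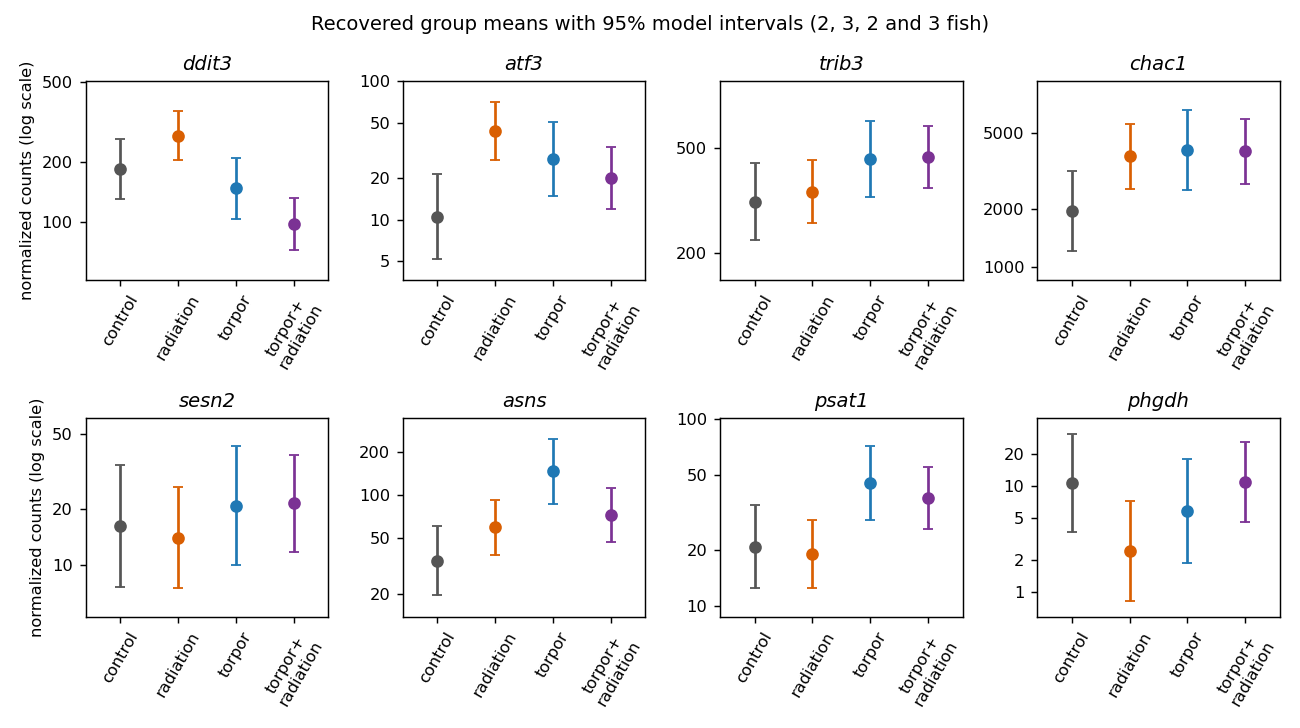
Recovered mean normalized counts (log axis, scaled per gene) of the 8 members with a single human counterpart in 2 control fish, 3 irradiated fish, 2 fish in torpor and 3 irradiated fish in torpor, with 95% model intervals as bars. *asns* peaks in torpor at 147, *atf3* in radiation at 43.6, *ddit3* is lowest in torpor+radiation at 98.1 and *chac1* is lowest in the control at 1956.

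The transcription factors are described first. *atf4a*, with baseMean 860, had a log2 fold change of −0.19 (SE 0.38) in induced torpor against the control (adjusted p = 0.847, deposited Wald test with Benjamini-Hochberg adjustment). *atf4b*, with baseMean 74.0, had 0.99 (SE 0.51, adjusted p = 0.251), and its 95% interval ran from −0.01 to 1.99. Neither copy passed the threshold, and the interval of the fold for *atf4b* reaches from 0.996 to 3.98. Both are copies of 1 ancestral gene, and how reads that fit both copies were counted is not known here.

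*ddit3* encodes CHOP, the factor that in mammals links prolonged stress of the endoplasmic reticulum to cell death. In the control its mean was 184 normalized counts (95% interval 130 to 261), beside 271 in radiation (205 to 359), 148 in torpor (104 to 210) and 98.1 in torpor+radiation (73.0 to 132). *ddit3* was thus highest in the irradiated fish at 28.5 °C and lowest in the irradiated fish at 18.5 °C with melatonin. Against the control it fell by 0.91 on the log2 scale in torpor+radiation (SE 0.34, adjusted p = 0.058), a 1.88-fold lower level. Its log2 fold changes of 0.56 in radiation (SE 0.33, adjusted p = 0.943) and −0.32 in torpor (SE 0.36, adjusted p = 0.692) did not pass.

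*atf3* encodes an early stress factor that is induced by ATF4 and by many other signals. Its recovered means were 10.5 normalized counts in the control (95% interval 5.20 to 21.2), 43.6 in radiation (26.8 to 71.0), 27.5 in torpor (14.8 to 51.0) and 20.0 in torpor+radiation (11.9 to 33.7). The control was the lowest group, and its interval does not reach that of radiation. *atf3* rose in radiation by 2.05 on the log2 scale (SE 0.63, adjusted p = 0.097), a 4.15-fold higher level. The values of 1.39 in torpor (SE 0.68, adjusted p = 0.227) and 0.93 in torpor+radiation (SE 0.65, adjusted p = 0.397) did not pass. Summed leukocyte markers (6 genes, of 13 found among 16) were 252 normalized counts in the control, 409 in radiation, 191 in torpor and 307 in torpor+radiation. Radiation was the highest group in both, whereas the lowest was torpor for the markers and the control for *atf3*. The part of these cells in the *atf3* value was not tested.

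The members that damp or modify the response come next. *trib3* encodes a pseudokinase that in mammals binds ATF4 and CHOP and limits them. Its recovered means lay close together, at 313 normalized counts in the control, 342 in radiation, 456 in torpor and 464 in torpor+radiation. Its log2 fold changes were 0.13 in radiation, 0.54 in torpor and 0.57 in torpor+radiation (SE 0.32, 0.35 and 0.32), none of which passed (adjusted p = 0.9998, 0.392 and 0.262).

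*chac1* encodes an enzyme that breaks down glutathione. Its recovered means were 1956 normalized counts in the control (95% interval 1214 to 3152), 3770 in radiation (2555 to 5564), 4083 in torpor (2535 to 6576) and 4009 in torpor+radiation (2716 to 5916). The 3 treated groups lay between 3770 and 4083 with the control well below, and all 3 differences rest on the same 2 control fish. These differences were 1.93-fold in radiation, 2.09-fold in torpor and 2.05-fold in torpor+radiation, and none passed (adjusted p = 0.703, 0.191 and 0.1245).

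*sesn2* encodes sestrin 2, which in mammals senses leucine and restrains the growth kinase complex mTORC1. Group means were 16.2 normalized counts in the control, 14.1 in radiation, 20.8 in torpor and 21.4 in torpor+radiation. These means lay close together, with wide errors: the 95% interval of the fold in torpor+radiation ran from 0.50 to 3.44. None of its 3 comparisons with the control passed (adjusted p = 0.9998, 0.859 and 0.794).

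The enzymes of amino acid synthesis are the last set. *asns* encodes asparagine synthetase, which makes asparagine from aspartate and glutamine and is among the best-known targets of ATF4. The recovered means of *asns* were 34.4 normalized counts in the control (95% interval 19.6 to 60.6), 59.0 in radiation (37.9 to 92.0), 147 in torpor (86.9 to 249) and 72.6 in torpor+radiation (46.8 to 113). Torpor without radiation was the highest group, and its interval does not reach that of the control. *asns* rose in torpor by 2.09 on the log2 scale (SE 0.57, adjusted p = 0.0069), a 4.27-fold higher level. In torpor+radiation the fold was 2.11 (log2 1.08, SE 0.53, adjusted p = 0.184) and in radiation 1.71 (log2 0.78, SE 0.53, adjusted p = 0.9998), and neither passed.

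*psat1* encodes phosphoserine aminotransferase, the middle enzyme of serine synthesis. Its recovered means were 20.7 normalized counts in the control (95% interval 12.5 to 34.4), 18.9 in radiation (12.4 to 28.9), 45.3 in torpor (28.7 to 71.4) and 37.9 in torpor+radiation (25.9 to 55.4). Both cold groups stood above both warm groups. Against the control, however, neither difference passed, with log2 1.13 in torpor (SE 0.50, adjusted p = 0.158) and 0.87 in torpor+radiation (SE 0.47, adjusted p = 0.237).

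*phgdh* encodes phosphoglycerate dehydrogenase, the first enzyme of the same route, and was the least counted member, with baseMean 7.24. Its recovered means were 10.6 normalized counts in the control, 2.43 in radiation, 5.78 in torpor and 10.7 in torpor+radiation. The radiation mean lies under a floor of 3 counts, so no fold is given for it, and the interval of the control alone runs from 3.68 to 30.8. No comparison passed (adjusted p = 0.821, 0.736 and 0.996 in the same order of treatments). The oocyte markers summed to 617 in the control, and their part in the *phgdh* value was not tested. *psph*, the phosphatase that completes the route and was picked after its values were seen, had 32.0 normalized counts in the control, 39.1 in radiation, 54.4 in torpor and 67.1 in torpor+radiation, and it too passed nowhere (adjusted p = 0.9998, 0.445 and 0.147).

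**Figure D2:**
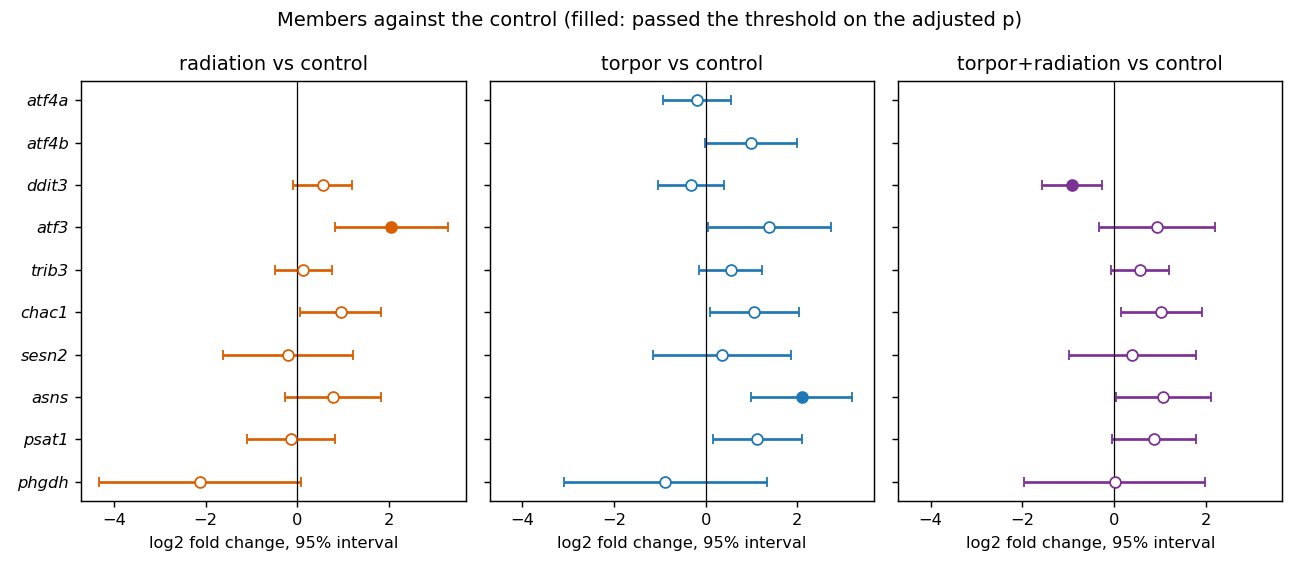
Log2 fold changes against the control with 95% intervals for radiation, induced torpor and induced torpor+radiation. Filled points passed the threshold, and each comparison holds 1 of them: *atf3* at 2.05 in radiation, *asns* at 2.09 in torpor and *ddit3* at −0.91 in torpor+radiation, while *atf4a* and *atf4b* have a value in torpor only.

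Counted together, 1 member passed against the control in each treatment, a different one each time. In radiation, 1 of 8 members passed the study's threshold of 0.4 on the adjusted p, where 1.96% of 7616 genes passed in either direction. In torpor, 1 of 10 passed the threshold of 0.1, where 11.0% of 11529 genes passed, and in torpor+radiation 1 of 8 passed the same threshold, where 15.5% of 6908 genes passed. The shares of members in both torpor groups are thus close to those of all genes. At an unadjusted p under 0.05 stood 2 members in radiation, 4 in torpor and 3 in torpor+radiation, beside 5.00%, 20.5% and 23.7% of all genes. Over members with baseMean of at least 10, which leaves out *phgdh*, the median log2 fold change was 0.56 in radiation, 0.99 in torpor and 0.87 in torpor+radiation, beside 0.05, −0.004 and 0.09 over all genes, and these 3 medians share the control fish. The members were chosen with earlier results of these data known, so these shares and medians are a description.

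All of these calls depend on the normal distribution to which the deposited Wald statistic is referred. Against a t distribution with 6 degrees of freedom, the number of fish less the number of groups, no gene at all passed in any of the 3 comparisons, and the adjusted p was 0.999 for *atf3*, 0.328 for *asns* and 0.314 for *ddit3*. Subtracting the shift of the median gene left *atf3* at 1.94, *asns* at 1.99 and *ddit3* at −1.07, each still past its threshold. The adjusted p of the Wald test was then 0.219 for *atf3*, 0.012 for *asns* and 0.023 for *ddit3*. The threshold is 0.4 for *atf3* in radiation and 0.1 for the other calls. At 0.1 the *atf3* call would be lost after this subtraction.

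The groups were then compared with each other rather than with the control. The control cancels from the pairwise contrasts, but not from the interaction given last. All of them were derived from the 3 fold changes and tested with a Wald test. A gene passed at an adjusted p of 0.1 or less (Benjamini-Hochberg, over the 6504 genes whose baseMean reached 10). *phgdh* lies below that baseMean and has no adjusted p here. Torpor+radiation against radiation asks how irradiated fish differed with and without torpor. *ddit3* was the 1 of 7 members that passed, where 16.1% of all genes passed: it fell by 1.47 on the log2 scale (SE 0.30, adjusted p = 6.3e-05), a 2.76-fold lower level with a 95% interval from 1.84 to 4.15. *psat1* had a 1.999-fold higher mean (SE on the log2 scale 0.42, adjusted p = 0.102), which did not pass. *atf3* had a log2 difference of −1.12 (SE 0.53, adjusted p = 0.153), which did not pass either. *trib3*, *chac1*, *sesn2* and *asns* had log2 differences between 0.09 and 0.60 and did not pass.

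In torpor against radiation, 3 of 7 members passed, where 10.5% of all genes passed. *asns* was higher by 1.32 on the log2 scale (SE 0.51, adjusted p = 0.092) and *psat1* by 1.26 (SE 0.46, adjusted p = 0.069), while *ddit3* fell by 0.88 (SE 0.33, adjusted p = 0.085). Between the cold, melatonin-treated fish and the irradiated fish, *asns* and *psat1* thus differed in the direction opposite to *ddit3*. Of the other members with an adjusted p, *atf3* had −0.67, *trib3* 0.42, *chac1* 0.11 and *sesn2* 0.56, and none passed. With all genes kept regardless of baseMean, only *psat1* still passed among them (adjusted p = 0.125 for *asns* and 0.116 for *ddit3*). Under the t distribution no member passed in either contrast, and *ddit3* in torpor+radiation against radiation had an adjusted p of 0.169.

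For radiation within torpor, that is torpor+radiation against torpor, 0 of 7 members passed, where 0.215% of all genes passed. *asns* showed the only unadjusted p under 0.05, beside 4.18% of all genes, with a log2 difference of −1.02 (SE 0.50, adjusted p = 0.9997) that corresponds to a 2.02-fold lower mean with a 95% interval from 1.02 to 4.01. *ddit3* had −0.59 (SE 0.34, adjusted p = 0.9997), *atf3* −0.46 and *psat1* −0.26, while *trib3*, *chac1* and *sesn2* lay between −0.03 and 0.04. The 95% intervals of the fold ran from 0.66 to 1.56 for *trib3* and from 0.40 to 2.65 for *sesn2*, so changes inside these bounds could not be told from none.

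The interaction, which is the response to radiation in the cold less the response to radiation at 28.5 °C, also passed for none of 7 members, where 0.461% of all genes passed. Unlike the pairwise contrasts, the interaction rests on the control fish too. Its value was −2.51 for *atf3* (SE 0.87, adjusted p = 0.373), −1.80 for *asns* (SE 0.73, adjusted p = 0.716) and −1.15 for *ddit3* (SE 0.47, adjusted p = 0.721). For these 3 genes radiation went with a higher mean at 28.5 °C and a lower mean in torpor, and these differences between the responses did not pass over all genes. These were the 3 of 7 members with an unadjusted p under 0.05, beside 4.87% of all genes. *trib3* (−0.10), *psat1* (−0.13), *sesn2* (0.25) and *chac1* (−0.97) had an unadjusted p above it. No value is read for *phgdh*, whose radiation mean lies under the floor.

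**Figure D3:**
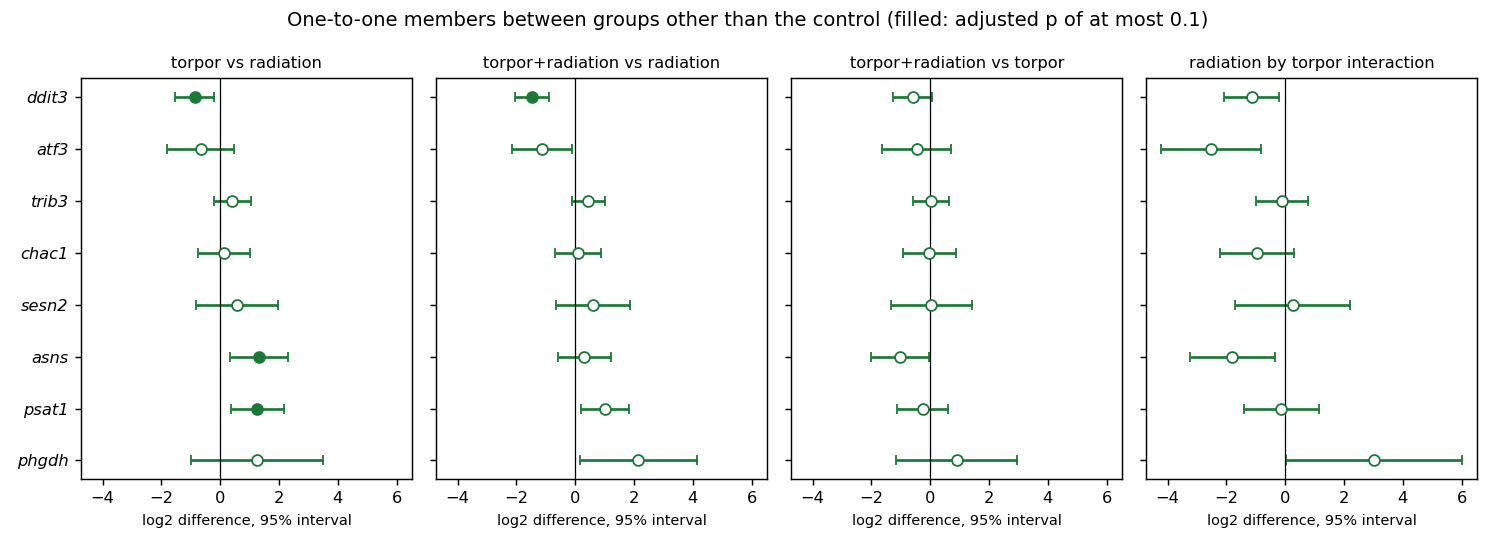
Log2 differences with 95% intervals (bars) of the 8 members between groups other than the control and for the radiation by torpor interaction. Filled points had an adjusted p of at most 0.1: *ddit3* at −0.88 and −1.47 against radiation and, in torpor against radiation, *asns* at 1.32 and *psat1* at 1.26. *phgdh*, whose radiation mean lies under the floor of 3 counts, has the widest bars and no adjusted p.

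Ordered by their means, the groups rank differently from member to member. The control was the lowest group for *asns*, *atf3*, *trib3* and *chac1*, radiation for *sesn2*, *psat1* and *phgdh*, and torpor+radiation for *ddit3*. The highest group was torpor for *asns*, *chac1* and *psat1*, torpor+radiation for *trib3*, *sesn2* and *phgdh*, and radiation for *atf3* and *ddit3*. In these orders no difference between neighbouring groups passed in the 23 of 24 pairs that have an adjusted p, of which the smallest was 0.237. Neighbours are the closest groups of an order made from the same means, so this does not show that they are equal. Across all 4 groups the highest mean exceeded the lowest 4.27-fold for *asns*, 4.15-fold for *atf3*, 2.76-fold for *ddit3*, 2.39-fold for *psat1*, 2.09-fold for *chac1*, 1.52-fold for *sesn2* and 1.48-fold for *trib3*.

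The genes whose group means followed most closely those of *asns* and *atf3* were looked up among 6503 others, by the distance between log2 means over the 4 groups after each gene was centred on its own mean. Nearest to *asns* was *ssb*, the La RNA-binding protein (distance 0.14), with 139 normalized counts in the control, 227 in radiation, 598 in torpor and 320 in torpor+radiation. It was followed by *g0s2*, an inhibitor of triglyceride lipase (0.24), and by *phospho2* (0.30). Nearest to *atf3* was *si:dkey-184p18.2* (0.35), and then *irf1b*, an interferon regulatory factor (0.36), with 22.2, 69.0, 46.2 and 30.8 normalized counts in the same order of groups, and *slco2a1*, a prostaglandin transporter (0.47). With 4 means a likeness of this kind is a description.

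The wider pathway was read from 5 lists, whose counts stand beside the 1.96% of all genes that passed in radiation, 11.0% in torpor and 15.5% in torpor+radiation. The lists, like the members, were chosen with earlier results of these data known. Their counts and medians beside those of all genes are therefore a description. The first list holds the eIF2 kinases, eIF2, its exchange factor eIF2B and its phosphatase. Of its 23 genes 20 were found, without the kinase genes *eif2ak2* and *eif2ak4* and without *ppp1r15b*. In radiation 0 of the 15 genes read passed, and none had an unadjusted p under 0.05. In torpor 2 of 20 rose and 1 fell, a share near the 11.0% of all genes, and in torpor+radiation 3 of 15 rose and 3 fell, beside 15.5% of all genes, with medians of 0.14, 0.01 and 0.05 in the 3 treatments. *eif2s2*, which encodes the beta subunit of eIF2, rose by 1.14 in torpor (SE 0.32, adjusted p = 0.010) and by 1.40 in torpor+radiation (SE 0.29, adjusted p = 0.00012). The eIF2B subunits were called in both directions. *eif2b1*, outside the rule for named genes and picked after its values were seen, rose by 1.17 in torpor (SE 0.43, adjusted p = 0.075) and 1.11 in torpor+radiation (SE 0.40, adjusted p = 0.052), and both calls were lost once the shift of the median gene was subtracted (adjusted p = 0.113 and 0.114). In the same order of treatments, *eif2b2* fell by 0.93 (SE 0.36, adjusted p = 0.090) and by 0.94 (SE 0.33, adjusted p = 0.042), and *eif2b5*, the catalytic one, fell by 1.30 in torpor+radiation (SE 0.35, adjusted p = 0.0061). *impact*, whose product inhibits the kinase GCN2 in mammals, rose by 1.22 in torpor+radiation (SE 0.34, adjusted p = 0.0077). The kinase gene *eif2ak3* (PERK), picked after its values were seen, had 19.6 normalized counts in the control, 16.0 in radiation, 4.86 in torpor and 6.96 in torpor+radiation, and passed nowhere (adjusted p = 0.9998, 0.197 and 0.267). *eif2ak1*, the other kinase gene found and also picked afterwards, went the other way. It had 41.1, 47.7, 62.85 and 51.6 normalized counts in the same order of groups, and passed nowhere either (adjusted p = 0.9998, 0.467 and 0.683).

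The second list holds factors that pair with ATF4 or regulate it. *cebpd*, a C/EBP factor of inflammation, was the 1 of 9 that passed in radiation, with a log2 fold change of 1.58 (SE 0.44, adjusted p = 0.038). In torpor 0 of 17 passed, with 1 gene, *cebpb*, at an unadjusted p under 0.05 (log2 0.93, SE 0.45, adjusted p = 0.219). *cebpb* had a similar value in radiation, also at an unadjusted p under 0.05 (log2 0.89, SE 0.42, adjusted p = 0.671). In torpor+radiation *phf8*, a histone demethylase gene, fell by 0.78 (SE 0.30, adjusted p = 0.071) as the 1 of 9. *nupr1b* had −0.54, −0.77 and −1.01 in the 3 treatments and did not pass. The medians of the list were 0.34, −0.07 and −0.10.

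The third list holds other targets of ATF4, among them amino acid transporters, enzymes of amino acid metabolism and genes of growth control and autophagy. In radiation 0 of 18 passed, with 1 gene, *eif4ebp1*, at an unadjusted p under 0.05, and the median was −0.05. In torpor 7 of 38 rose and 1 fell (median 0.53), where 11.0% of all genes passed, and in torpor+radiation 5 of 17 rose and none fell (median 0.23), where 15.5% passed. Subtracting the shift of the median gene added *sesn1* as lower in torpor+radiation (log2 −1.03, adjusted p = 0.090). The smallest adjusted p was that of *slc6a9*, the glycine transporter GlyT1, with 83.7 normalized counts in the control, 80.6 in radiation, 1071 in torpor and 425 in torpor+radiation, and log2 fold changes of 3.68 in torpor (SE 0.32, adjusted p = 3.8e-26) and 2.34 in torpor+radiation (SE 0.30, adjusted p = 3.5e-12). *cars1*, the cysteinyl-tRNA synthetase, rose by 1.63 in torpor (SE 0.42, adjusted p = 0.0036) and 1.57 in torpor+radiation (SE 0.38, adjusted p = 0.0015). In the torpor comparison, the only one in which they were read, *cbsa*, a cystathionine beta-synthase, rose by 3.71 (SE 0.70, adjusted p = 1.5e-05) and *eif4ebp3*, a repressor of cap-dependent translation, by 2.36 (SE 0.45, adjusted p = 2.1e-05). *cbsa* had a baseMean of 26.5. *cbsb*, the other cystathionine beta-synthase gene of the list, was picked after its values were seen and had a baseMean of 227. It had a log2 fold change of 0.185 (SE 0.48, adjusted p = 0.886) and did not pass.

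The fourth list holds the neighbours of *psat1* and *phgdh*, the enzymes of serine, glycine and folate-bound one-carbon units. In radiation 0 of 9 passed, with none at an unadjusted p under 0.05. In torpor 3 of 13 rose and 1 fell, where 11.0% of all genes passed, and in torpor+radiation 3 of 8 rose and 1 fell, where 15.5% passed, with medians of 0.36 and 0.42. *shmt1*, which splits serine in the cytosol, rose by 1.20 in torpor (SE 0.47, adjusted p = 0.097) and 1.32 in torpor+radiation (SE 0.43, adjusted p = 0.029), and the torpor call was lost once the shift of the median gene was subtracted (adjusted p = 0.137). The formyltetrahydrofolate dehydrogenases parted: mitochondrial *aldh1l2* rose by 2.42 in torpor (SE 0.78, adjusted p = 0.031) and 2.22 in torpor+radiation (SE 0.72, adjusted p = 0.027), while cytosolic *aldh1l1* fell by 1.67 in torpor (SE 0.49, adjusted p = 0.016) and had −2.13 in torpor+radiation (SE 0.46, adjusted p = 0.00019), also past the threshold.

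The fifth list holds the enzymes that surround *asns* in asparagine, aspartate and glutamine metabolism. In radiation 0 of 7 passed and in torpor+radiation 0 of 6, with no gene at an unadjusted p under 0.05 in either. In torpor 2 of 15 rose and 1 fell (median −0.03), where 11.0% of all genes passed. Once the shift of the median gene was subtracted, 1 rose and 2 fell. *glula*, a glutamine synthetase gene read in torpor only, rose by 2.12 (SE 0.31, adjusted p = 4.2e-09), and *adss2*, which joins aspartate to inosine monophosphate, rose by 1.04 (SE 0.41, adjusted p = 0.098), where its value in torpor+radiation was 0.12 (SE 0.37), and the torpor call was lost after that subtraction (adjusted p = 0.145). *glud1b*, a glutamate dehydrogenase gene, fell by 0.85 (SE 0.32, adjusted p = 0.078), and *got2b*, an aspartate aminotransferase gene, had −0.66 (SE 0.28, adjusted p = 0.131), which passed after it (adjusted p = 0.070). As for the members, no gene of any of the 5 lists passed against the t distribution in these 3 comparisons.

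**Figure D4:**
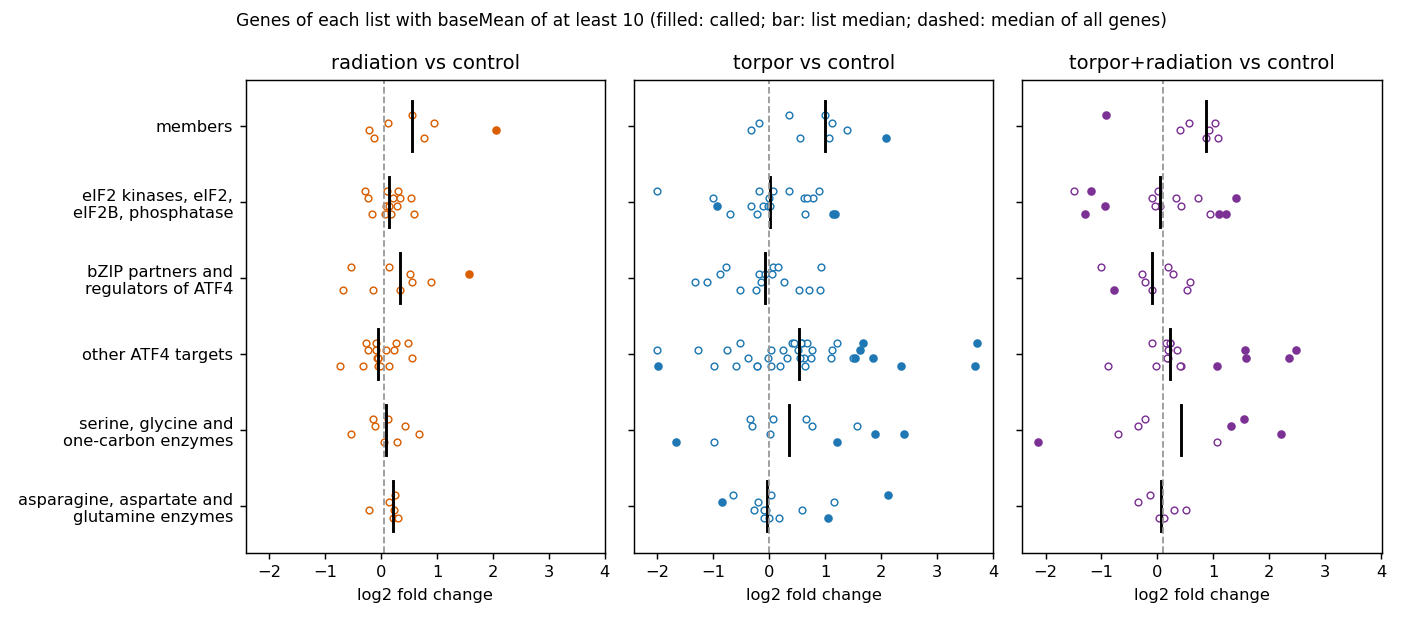
Log2 fold changes against the control of the members and of the genes in 5 wider lists, for those with baseMean of at least 10. Filled points were called, black bars are list medians and the dashed line is the median of all genes. Called genes are sparse in radiation (*atf3* and *cebpd*), and the other ATF4 targets reach 3.71 (*cbsa*) in torpor.

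Between the groups other than the control, the lists held few further calls for radiation within torpor. *slc6a9* was lower in torpor+radiation than in torpor by a log2 difference of −1.33 (SE 0.28, adjusted p = 0.0040) and was the 1 of 17 ATF4 targets that passed, and the other 4 lists held none. *cebpd* had an interaction of −2.20 (SE 0.62, adjusted p = 0.089) and was the only gene of the lists that passed in that test, which includes the control. Against the t distribution no gene of any kind passed in these 2 tests.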

How the data were processed

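RNA of dorsal muscle from 10 fish was sequenced as stranded poly-A libraries. Per the labels and methods, the authors used FastQC, cutadapt, STAR, HTSeq and DESeq2 with GRCz11, and versions are not given in the sources used here. The authors deposited 3 tables with the baseMean as signal, unshrunken log2 fold changes with standard errors, a Wald score, and a p-value with its Benjamini-Hochberg adjustment. These columns were read because they are the measurements the tables hold. Group means were recovered from baseMean, group sizes and the 3 fold changes. Each gene's dispersion was solved from its 3 standard errors, assuming negative binomial counts, and recalculated errors had a median of 0.996 to 1.005 times the deposited ones. Derived contrasts used a Wald test over genes with baseMean of at least 10. The recovery was run on simulated counts whose standard errors came from the same formula with the dispersion known. This checks the calculation only, and cannot show how far the Wald calls hold with 2 or 3 fish per group. Depth per library is unknown, and the median standard error was 0.43 to 0.465. Alternatives were the reference distribution, the genes adjusted over, centring, dispersion, filters and the threshold. All members, the 4 genes with the smallest p of each wider list and the 3 genes nearest to *asns* and to *atf3* were named. Of these genes, 1 is not reported here. Members and lists were chosen with earlier results of these data known. Python 3.11.15, NumPy 2.4.6, pandas 2.3.3, SciPy 1.17.1 and Matplotlib 3.10.9 were used.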

Additional observations from a re-analysis of the deposited data

How the results depend on the processing

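Of 39 repeats of the 7 counts of members called, 30 stayed within 1.5 times. These include all repeats of torpor+radiation against torpor and of the interaction, where the count was 0 from the start and could not be lowered. Against the t distribution with 6 degrees of freedom the count was 0 in radiation, torpor, torpor+radiation, torpor+radiation against radiation and torpor against radiation, where *ddit3*, *asns* and *psat1* then had adjusted p = 0.398, 0.402 and 0.384. At a threshold of 0.05 it was 0 in torpor+radiation against the control and in torpor against radiation. For radiation against the control the alternative threshold was 0.1 instead. *atf3* passed that with an adjusted p of 0.097, which is above 0.05. Its adjusted p was 0.219 when centred, 0.202 over genes with baseMean of at least 10 and 0.213 without independent filtering. These values pass at 0.4 but not at 0.1. With 0.4 kept for them, the count stayed at 1. With the smallest of the 3 dispersions it was 2 in torpor+radiation against radiation, with *psat1* added (adjusted p = 0.098), and without the baseMean filter it was 1 in torpor against radiation. *phgdh* in torpor+radiation changed sign when centred on the median gene (log2 −0.14, adjusted p = 0.957). Of 317 repeats of single member values, 302 kept direction and side of the threshold or, with group means held at the floor, stayed within the SE. In 13 repeats a call was lost. Only centring and the floor alter the log2 value, so the direction could not change in the other settings. Most member values had not passed in the first place, so few had a call to lose. Over all genes, 149 passed in radiation, against 110 when centred, 60 when adjusted over genes with baseMean of at least 10, 83 without independent filtering and 0 with the t distribution. The t distribution also gave 0 in place of 1264 in torpor, 0 in place of 1072 in torpor+radiation and 3 in place of 1049 in torpor+radiation against radiation. No paired analysis was possible because no value per fish is held in the tables, and for the same reason no fish could be left out in turn.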

Other observations

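Further genes of the wider lists passed outside the rule for named genes and were picked after their values were seen. Among amino acid transporters, *slc1a4*, which carries alanine, serine and cysteine, had 18.5 normalized counts in the control, 15.8 in radiation, 67.2 in torpor and 102 in torpor+radiation, and log2 fold changes of 1.86 in torpor (SE 0.68, adjusted p = 0.066) and 2.47 in torpor+radiation (SE 0.62, adjusted p = 0.0023). *slc38a2*, which carries neutral amino acids, had 2820, 3132, 4247 and 5868 normalized counts in the same order of groups and passed in torpor+radiation with 1.06 (SE 0.30, adjusted p = 0.0085) but not in torpor (0.59, SE 0.33, adjusted p = 0.301), a difference between the groups that itself did not pass (0.47, SE 0.30, adjusted p = 0.9997). *slc3a2b*, the heavy chain shared by several transporters, had 1.53 in torpor (SE 0.41, adjusted p = 0.0067). *gpt2*, the mitochondrial alanine aminotransferase, rose by 1.68 in torpor (SE 0.58, adjusted p = 0.049) and 1.59 in torpor+radiation (SE 0.53, adjusted p = 0.032). *gpt2l* of the same list, read in torpor only, had −0.60 (SE 0.66, adjusted p = 0.680). Other genes passed as lower. *ndrg1a*, of the ATF4 targets and read in torpor only, fell by 1.99 (SE 0.70, adjusted p = 0.054). *gcn1*, of the eIF2 list, fell by 1.19 in torpor+radiation (SE 0.46, adjusted p = 0.075). *ppp1r15a*, which recruits the eIF2 phosphatase, passed nowhere, with 0.34 in radiation (SE 0.41, adjusted p = 0.9998), 0.35 in torpor (SE 0.45, adjusted p = 0.736) and −0.09 in torpor+radiation (SE 0.41, adjusted p = 0.924). These values come from the deposited tables, in which all 3 comparisons share the control fish.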
